A study of Mus musculus with 58 samples.

Results

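The comparison set the forestomach of vehicle-gavaged mice against the liver of the same mice, in animals given no polycyclic aromatic hydrocarbon. On 3 of the 4 forestomach arrays genes of the adjoining glandular stomach were high as well (described below). The forestomach side is therefore not that of a squamous wall alone. The arrays were chosen by their labels alone: 4 forestomach and 4 liver arrays titled as vehicle controls (dose 0), 8 of the 58 arrays in the series. All 8 came from male Muta™Mouse animals (a transgenic strain that carries a bacterial lacZ reporter for mutation assays) of about 13 weeks, gavaged with olive oil on 28 consecutive days and sampled 72 hours after the last gavage. The labels gave both tissues of mice 1, 2, 3 and 5. Another set of animals, alike in strain and age, had been gavaged with indeno(123,cd)pyrene (IP), dissolved in the same oil, at a daily dose per kg of body weight of 12.5 mg (low), 25 mg (middle) or 50 mg (high), and gave 5 forestomach and 5 liver arrays per dose. RNA was taken from random sections of frozen tissue, so each value is an average over every cell type in the section, and fewer cells of a type cannot be told apart from less RNA per cell.

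The forestomach of the mouse is the non-glandular, proximal part of the stomach. It is lined by a keratinised stratified squamous epithelium in which basal cells divide, move upward, exchange their keratins and build a cornified envelope, and beneath it lie connective tissue, nerves and layers of smooth muscle. The liver is built mostly of hepatocytes, which secrete plasma proteins, make bile acids, dispose of ammonia, buffer blood glucose and oxidise foreign compounds, with macrophages (Kupffer cells) and a specialised endothelium in the sinusoids between them. Polycyclic aromatic hydrocarbons need oxidation by cytochrome P450 enzymes before they bind DNA, so the enzymes a tissue carries before exposure bear on its response.

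Each array carried tissue RNA in the Cy5 channel and universal mouse reference RNA, a pool from mouse cell lines, in the Cy3 channel. A level is given here as log2(Cy5/Cy3) after loess normalisation within the array, so 0 is the level of the reference pool, and the tissue difference is the mean forestomach level minus the mean liver level on that log2 scale, with its standard error (SE). A probe was called when limma's Benjamini-Hochberg adjusted p over all 55681 probes was at most 0.05 and the fold change was at least 1.5. A gene with several probes is represented by its brightest. Some probes had a Cy5 signal well above background on 0 of 4 arrays of a tissue. Ratio differences printed for them rest on a signal near background in that tissue. Any fold change given for them is a bound ("at least N-fold"). It was computed from the Cy5 signals alone, between the bright tissue's mean and the detection limit of the dim one, on each of 2 scalings of Cy5, and the lower value is printed. It bounds the Cy5 signal and not the ratio: it exceeded the fold change of the ratio for 46 of the 191 genes of the lists that have a bound. No dyes were swapped, so dye bias is not removed from it. No probe was saturated on any of the 8 arrays.

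Arrays stood apart in 3 ways that touch the results. Tissue coincided with technical groups: liver arrays lay on 3 slides read with one version of Agilent's Feature Extraction and forestomach arrays on 4 other slides read with another version, so slide and scan cannot be told apart from tissue. Cy5 was well above background at 43.0 to 52.4% of probes on forestomach arrays and at 37.6 to 41.7% on liver arrays (exact permutation test over 70 splits, two-sided, p = 0.0286, the smallest 4 against 4 arrays can give). The forestomach array of mouse 1 correlated with the other 3 forestomach arrays at 0.84 to 0.87 (Pearson's r across probes), while those correlated with each other at up to 0.96 and liver arrays among themselves at 0.97 to 0.98. The Cy3 signal of the reference RNA was not constant between the tissues' arrays: 2299 probes (4.13%) were called on Cy3 alone, and among the 12719 probes called on the ratio, 1305 (10.3%) were.

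The array of mouse 1 differed from the rest in genes of the glandular stomach, the acid- and mucus-producing part that adjoins the forestomach. The mean log2 ratio of 16 glandular stomach genes was 0.36 in the forestomach of mouse 1 and 5.91, 5.75 and 5.87 in mice 2, 3 and 5, against -0.02 to 0.08 on the 4 liver arrays. Atp4b, the beta subunit of the gastric proton pump of parietal cells, read 0.17, 6.83, 6.72 and 7.11 in forestomach and -0.26, -0.18, -0.20 and -0.36 in liver. Cblif, which encodes gastric intrinsic factor, read 0.24, 8.64, 8.69 and 8.71 in forestomach and 0.00, 0.13, 0.01 and 0.10 in liver. In 3 of 4 vehicle forestomach arrays both genes were thus far above the liver, and in mouse 1 both were at the liver's level. Muc5ac, the mucin of gastric surface cells, read 1.28, 6.21, 6.14 and 6.32 in forestomach, and Tff1, a trefoil peptide of the same cells, 2.18, 6.08, 6.41 and 6.26, so the array of mouse 1 was lower in these too but not at the liver's level. The same split ran through the dosed mice: the list mean exceeded 2 on 7 of 15 dosed forestomach arrays, where it was 4.12 or more, and was at most 1.41 on the other 8, while no liver array of 19 exceeded 0.12. Stratified keratins showed no such split, with list means of 4.55, 4.75, 4.84 and 5.02 in the forestomach of mice 1, 2, 3 and 5. Where calls below that move with the glandular genes changed without that array, both values are given, and the part of glandular tissue in each was not tested.

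**Figure D1:**
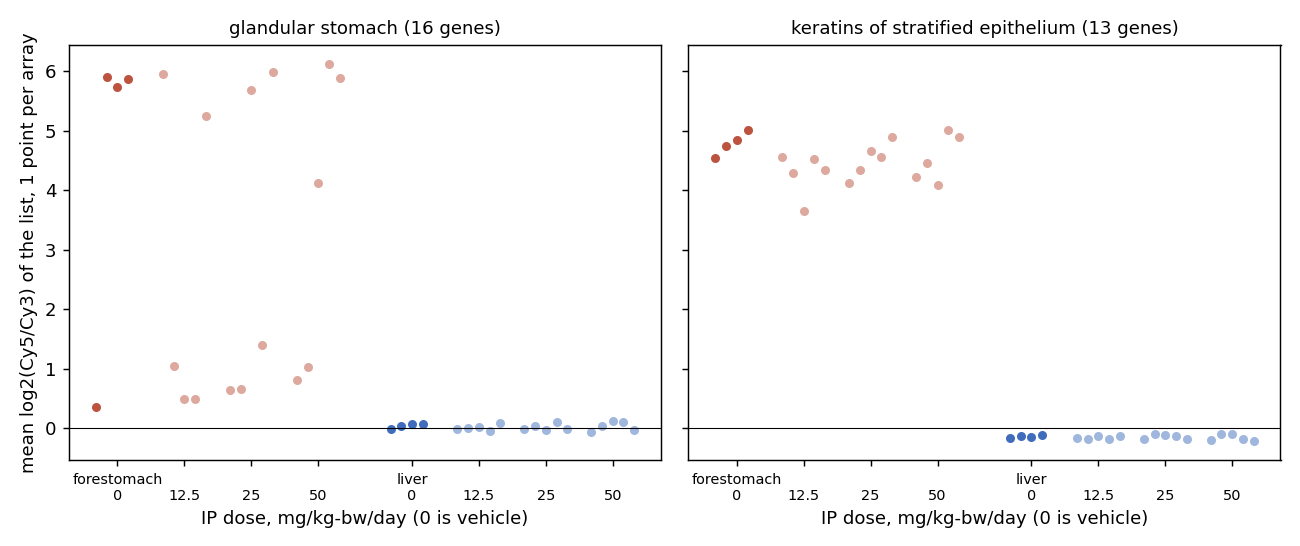
Mean log2(Cy5/Cy3) of the glandular stomach list (16 genes, left) and of the stratified keratins (13 genes, right) on each forestomach array (red) and liver array (blue), by IP dose in mg/kg-bw/day, 1 point per array and stronger colour for vehicle. Glandular genes were near 6 on 3 of 4 vehicle forestomach arrays and at 0.36 on the array of mouse 1, whereas stratified keratins lay between 4.55 and 5.02 on all 4.

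Of 20018 named genes, 4441 (22.2%) were called higher in forestomach and 3141 (15.7%) higher in liver, and of 55681 probes 7186 (12.9%) and 5533 (9.94%). The gene shares of 22.2% and 15.7% are the background for every list count below. More genes were called in forestomach, and differences of at least 16-fold were more often toward liver: at least 4-fold separated 1326 genes higher in forestomach and 1026 higher in liver, at least 16-fold 380 and 459, and at least 64-fold 92 and 218. Well above background on all 4 arrays of a tissue and on 0 of 4 of the other were 1305 genes in forestomach and 271 in liver, and 10097 genes were well above background on all 8 arrays. With each array centred on its median in place of loess, 76.9% of called probes were higher in forestomach against 56.5% with loess, and the median over all genes moved from 0.03 to 0.18, so small differences toward forestomach are given with that in view.

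**Figure D2:**
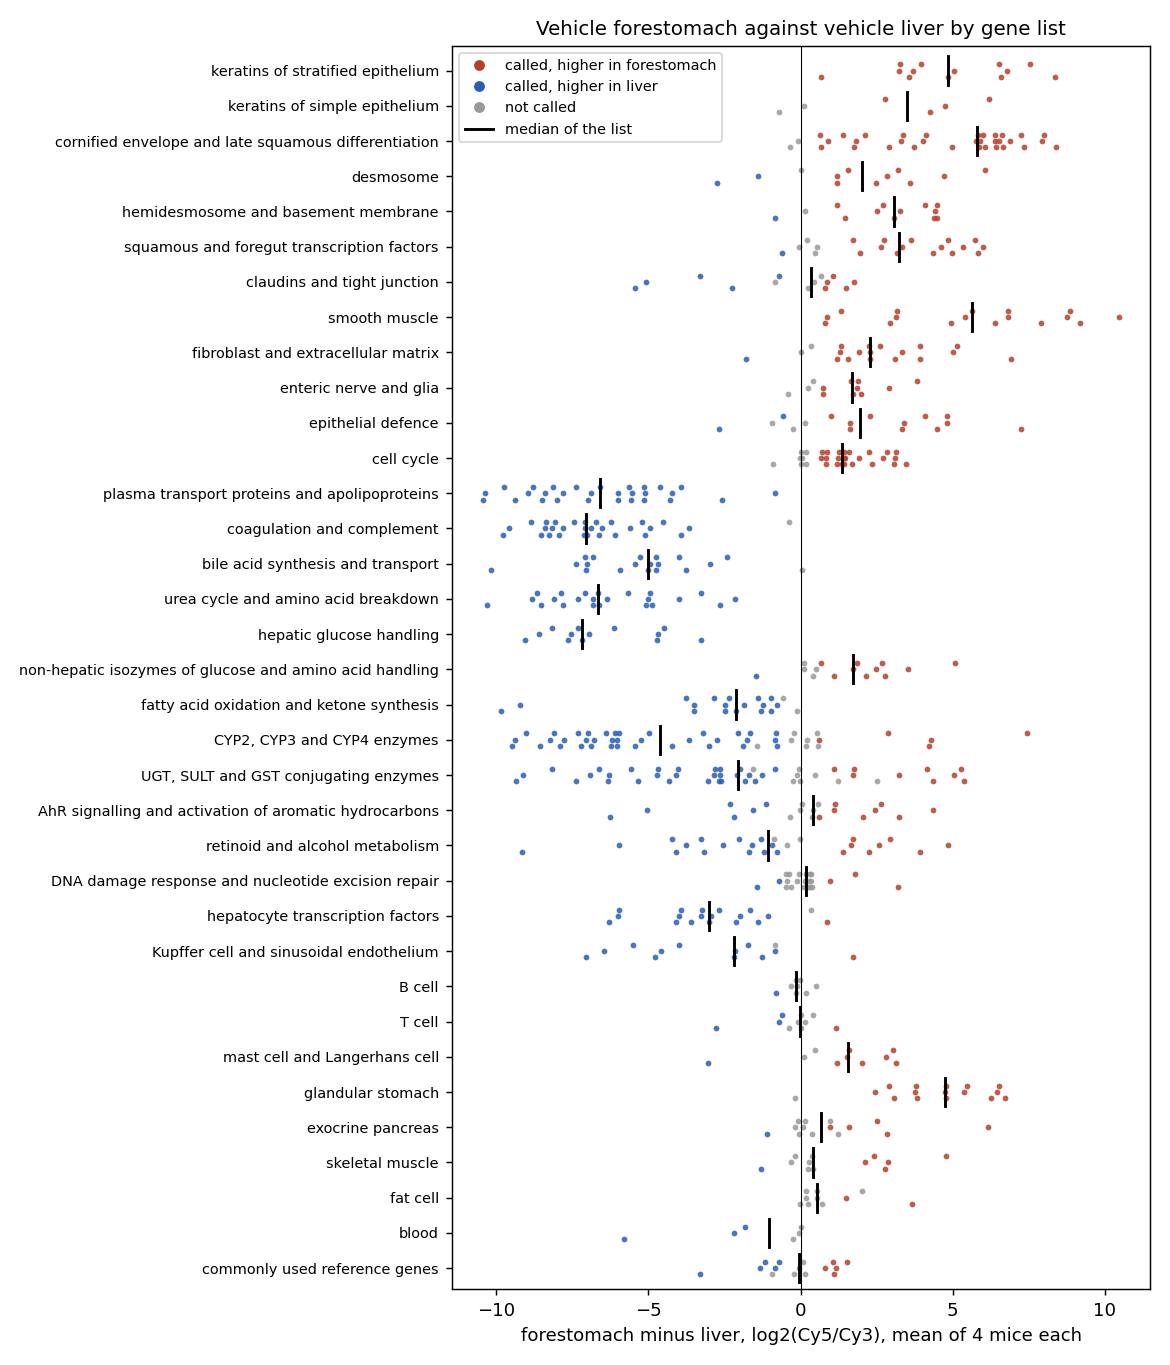
Tissue difference, forestomach minus liver in log2(Cy5/Cy3) (means of 4 mice each), of every measured gene of 35 lists, with 1 point per gene coloured by call and a black bar at each list's median. Squamous, muscle and matrix lists lay on the forestomach side (median 5.80 for the cornified envelope and 5.62 for smooth muscle), and the secretory and metabolic lists of the hepatocyte on the liver side (median -7.06 for coagulation and complement).

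The 10 largest differences toward forestomach were taken among genes measured well above background on all 8 arrays. Actg2 (enteric gamma-actin) and Myl9 (myosin light chain), of smooth muscle, led them. Tagln (transgelin) and Tpm2 (beta-tropomyosin), also of smooth muscle, were among them. Actg2 read 6.04, 6.16, 7.39 and 7.33 in forestomach and -3.51, -4.20, -3.77 and -3.43 in liver, a difference of 10.46 (SE 0.31, limma adjusted p = 5.83e-10), or 1409-fold. The forestomach values of Actg2 in mice 3 and 5 were higher than in mice 1 and 2 by more than the spread among the 4 livers, and the tissues did not overlap. Ada (adenosine deaminase), with 9.12 (SE 0.15), ranked between Myl9 and Tagln. Cpe (carboxypeptidase E, which trims peptide hormones) differed by 7.96 (SE 0.15) and Sparcl1 (a matrix glycoprotein) by 7.31 (SE 0.15). Sbsn and Cdsn, proteins of the cornifying layers, and Cyp2s1, a cytochrome P450, completed the 10, with differences of 7.93, 7.34 and 7.44. Ada read 7.49, 7.08, 7.05 and 7.22 in forestomach and -1.99, -2.26, -1.59 and -1.79 in liver, so every forestomach exceeded every liver by more than 8 on the log2 scale.

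The 10 largest differences toward liver under the same rule were all secreted or hepatocyte-bound products. Mup5 read 0.72, 2.67, 0.40 and 2.84 in forestomach and 11.96, 11.52, 10.39 and 11.64 in liver, a difference of -9.71 (SE 0.55, adjusted p = 1.21e-07), and Mup20 -8.61 (SE 0.46). Both are major urinary proteins, pheromone carriers whose many near-identical copies the probes may not separate, so the value is that of the family rather than of a single gene. Rgn (regucalcin, a calcium-binding lactonase) differed by -9.42 (SE 0.25), Gcgr (the glucagon receptor) by -8.48 (SE 0.18) and Cyp2c70 (which makes muricholic acids in mice) by -8.10 (SE 0.20). Gcgr read 0.46, 0.49, 0.35 and 0.33 in forestomach and 9.08, 8.88, 8.29 and 9.28 in liver, with no overlap. The others were plasma proteins, Itih4 (-8.52), Apof (-8.19), Serpina10 (-8.06), Orm2 (-8.03) and Rbp4 (-7.99).

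All 13 keratins of stratified epithelium were called higher in forestomach and 0 higher in liver, against 22.2% and 15.7% of all genes, with a median difference of 4.85. Keratins are the intermediate filaments of epithelial cells, and basal cells use the pair Krt5 and Krt14. Krt5 read 3.2, 3.63, 3.73 and 3.86 in forestomach and -0.08, 0.16, 0.19 and -0.05 in liver. Krt14 read 3.57, 3.86, 4.08 and 4.09 in forestomach and -0.99, -1.36, -1.03 and -1.21 in liver. Both were called, with ratio differences of 3.55 (SE 0.14) and 5.05 (SE 0.14), and Cy5 was at least 713-fold and at least 290-fold higher in forestomach. For Krt5 the ratio difference and the bound are far apart because the Cy3 signal differed too: Cy5 alone differed by 9.52 on the log2 scale and Cy3 alone by 7.37, in the same direction.

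The keratins of the layers above the basal cells differed as far. Krt1, which pairs with Krt10 in keratinising epidermis, read 7.27, 8.12, 7.68 and 8.58 in forestomach and -0.44, -0.48, -0.49 and -0.35 in liver. Krt10 read 6.33, 7.06, 7.17 and 7.19 in forestomach and 0.13, 0.25, 0.15 and 0.12 in liver. Krt4, which pairs with Krt13 in internal squamous epithelia such as oesophagus, read 6.72, 6.17, 6.09 and 7.04 in forestomach and -0.17, 0.07, -0.02 and 0.11 in liver. The forestomach thus carried suprabasal keratins of keratinising and of moist squamous epithelium together in every mouse, without overlap with liver. Bounds were at least 1150-fold for Krt1, 80.3-fold for Krt4 and 384-fold for Krt13. Krt6b, Krt16 and Krt17, which skin raises in wounds and hyperplasia, differed by 7.55, 3.26 and 3.95. The least separated member was Krt80, with 0.66 (SE 0.11), a 1.58-fold difference that fell to 0.57 and was not called without the liver array of mouse 5.

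Keratins of simple epithelium, which line single-layered tubes and also make up the filaments of hepatocytes, gave a different picture and depended on mouse 1. Krt8 read -3.43, 1.65, 1.86 and 1.05 in forestomach and 0.48, -0.24, 0.43 and -0.05 in liver. Its partner Krt18 read -3.89, 0.58, 0.77 and 0.31 in forestomach and 0.48, -0.37, 0.24 and 0.25 in liver. On the forestomach array of mouse 1 both were lower than on every other array, and neither was called over the 8 arrays (0.13, SE 0.96, adjusted p = 0.946, and -0.71, SE 0.86, adjusted p = 0.62). Without that array Krt8 was called higher in forestomach, at 1.37. Krt19, a keratin of ducts and glands, read -1.90, 3.87, 3.90 and 3.48 in forestomach and -3.89, -4.21, -3.51 and -3.83 in liver, so even mouse 1 stood above the livers. Of the 6 simple keratins 4 were called higher in forestomach, and 5 without the array of mouse 1. Their list mean was -0.88 in forestomach of mouse 1 and 2.58 to 2.92 in the other 3, in parallel with the glandular genes.

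**Figure D3:**
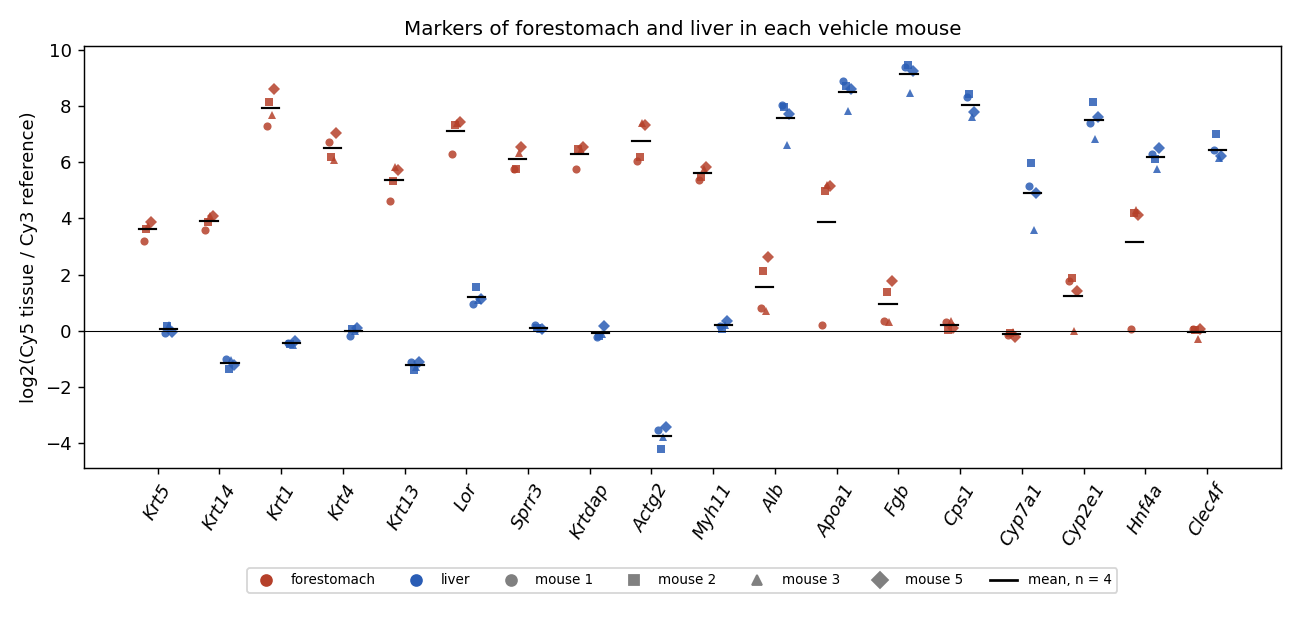
log2(Cy5/Cy3) of 18 markers in forestomach (red) and liver (blue) of each vehicle mouse, with a symbol per mouse and a black bar at the mean of 4. Squamous and muscle markers did not overlap between the tissues in any of the 4 mice, and Apoa1 and Hnf4a were near 0 in the forestomach of mouse 1 but near 5 and 4 in the other 3 mice.

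The cornified envelope is the cross-linked protein shell that replaces the membrane of a dying squamous cell. Of 34 measured genes of the envelope and of late differentiation, 32 were called higher in forestomach and 0 higher in liver, with a median of 5.80. Lor (loricrin, the main envelope protein) read 6.31, 7.31, 7.38 and 7.42 in forestomach and 0.97, 1.57, 1.08 and 1.15 in liver, a difference of 5.91 (SE 0.24). Sprr3 (a small proline-rich cross-bridging protein of oesophagus and forestomach) read 5.74, 5.77, 6.34 and 6.54 in forestomach and 0.21, 0.11, 0.07 and 0.07 in liver, at least 199-fold higher in Cy5. Krtdap, Asprv1 (a protease that processes filaggrin) and Cnfn (cornifelin) had bounds of at least 1870-fold, 1370-fold and 1440-fold, and in each the 4 liver values lay within 0.5 of 0. Tgm1, the transglutaminase that cross-links the shell, was called with 3.72 (SE 0.19). The brightest probe of Tgm3, another transglutaminase, was not called (-0.34, SE 0.10, adjusted p = 0.0255), while the mean over all its probes was 1.49, so its probes disagree. Ivl (involucrin) had the smaller values 2.22, 0.92, 1.51 and 2.25 in forestomach against -0.06, -0.20, 0.13 and 0.01 in liver, a bound of at least 1.9-fold. Within the Sprr family the differences ran from 0.63 for Sprr2h, a call lost in 6 of the 8 fits that each left out 1 array, to 6.88 for Sprr1a. These small genes resemble each other closely, so probes may share signal between copies.

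The start-site region of these genes can be read beside the values. RefSeq promoter windows (GRCm38.p6, 250 bases before to 50 after the start) were found for 30 of the 45 called genes of the stratified keratin and cornified envelope lists. They were searched on both strands for TGANTCA, the letters bound by AP-1 (Jun and Fos, which are known to act in squamous differentiation), and for the TATA box, TATAAA. The first motif lay in 20 of their 35 windows (57.1%) and in 7.81% of all 32851 windows, and TATAAA in 40.0% and 13.6%. In 49 windows of 43 of the 58 genes called higher in liver in the plasma protein and coagulation lists described further on, the shares were 14.3% and 24.5%. Windows are not separate cases, since Dmkn alone gave 3 of the 35. Sprr2b, Sprr2d, Sprr2e, Sprr2f and Sprr2h each had TATAAA 29 bases and TGANTCA 193 to 198 bases before the start. Counted by gene, TGANTCA lay in 17 and TATAAA in 14 of the 30 genes, against 2425 and 4234 of all 27025 genes. A match is a description of the letters, not evidence of binding. The 5 windows below are examples in which both motifs (capitals) lie within the 120 bases before the start. In Rptn and Crnn the first motif is of the looser form. Each runs 5′ to 3′ along the gene's strand over the 120 bases that end at the base before the start.
Lor (chr3:92083143-92083262, minus strand): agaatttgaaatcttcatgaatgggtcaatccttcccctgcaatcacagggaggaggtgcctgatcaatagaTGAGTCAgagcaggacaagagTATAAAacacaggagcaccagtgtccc
Krtdap (chr7:30787785-30787904, plus strand): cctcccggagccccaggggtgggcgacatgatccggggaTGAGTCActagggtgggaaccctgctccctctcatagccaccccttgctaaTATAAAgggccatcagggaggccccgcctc
Rptn (chr3:93393579-93393698, plus strand): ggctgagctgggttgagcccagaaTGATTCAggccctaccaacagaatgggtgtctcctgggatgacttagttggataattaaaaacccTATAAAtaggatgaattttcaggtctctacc
Crnn (chr3:93144669-93144788, plus strand): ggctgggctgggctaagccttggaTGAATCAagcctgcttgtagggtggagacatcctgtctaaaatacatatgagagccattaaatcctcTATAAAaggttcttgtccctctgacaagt
Ivl (chr3:92573736-92573855, minus strand): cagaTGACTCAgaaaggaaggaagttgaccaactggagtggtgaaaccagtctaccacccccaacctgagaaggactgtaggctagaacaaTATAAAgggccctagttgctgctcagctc
TATAAA began 27 to 31 bases before the start in all 5, and TGANTCA 48 bases before it in Lor, 81 in Krtdap, 96 in Rptn and Crnn and 116 in Ivl. The genes with these windows had tissue differences of 5.91, 6.38, 6.62, 0.67 and 1.76 in the same order, so the presence of both motifs went with large and small differences alike. The call of Crnn was lost without the forestomach array of mouse 5 (0.57).

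Some junction genes of stratified and of simple epithelia were called in opposite directions. Of 12 desmosome genes, which rivet epithelial cells together, 9 were called higher in forestomach and 2 higher in liver, against 22.2% and 15.7% of all genes. The share higher in liver, 16.7%, was thus near that over all genes. Pkp1 (plakophilin 1, of stratified epithelia) read 4.25, 4.31, 4.34 and 4.46 in forestomach and -1.37, -2.18, -1.72 and -1.62 in liver, at least 145-fold, while Pkp2 (of simple epithelia and heart) read -1.97, -0.57, -0.29 and -0.39 in forestomach and 0.60, 0.45, 0.66 and 0.65 in liver, a difference of -1.39 (SE 0.31). Dsg3 (desmoglein 3) was called higher in forestomach (2.47, SE 0.14) and Dsg2 (desmoglein 2, of simple epithelia) higher in liver (-2.75, SE 0.35). Dsg2 read 0.59, 2.48, 2.01 and 2.42 in forestomach, lowest in mouse 1. Dsp (desmoplakin, common to all desmosomes) was well above background in both tissues and differed by 3.2 (SE 0.11). Of 13 hemidesmosome and basement membrane genes, 11 were called higher in forestomach, with Itga6 and Itgb4, the integrin pair that anchors basal cells, at 4.44 and 4.49 and Col17a1 at 4.49. Lama3 (laminin alpha 3) was called higher in liver by the probe that stands for it (-0.85, SE 0.17). With median-centred arrays and on Cy5 alone, 0 genes of this list were called higher in liver.

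Tight junction genes were split, with 5 of 14 called in each direction, 3 and 5 (forestomach and liver) on Cy5 alone and 7 and 6 without the forestomach array of mouse 1. Of all genes, 22.2% were called higher in forestomach and 15.7% higher in liver. Cldn3 read 0.81, 1.17, 1.18 and 0.73 in forestomach and 6.52, 6.60, 5.98 and 6.61 in liver. Cldn2 read -0.16, 1.22, 0.47 and 0.57 in forestomach and 5.95, 5.74, 5.59 and 5.18 in liver. Both are claudins of bile canaliculi, Cldn2 also of leaky epithelia, and both were called higher in liver (-5.46, SE 0.16, and -5.09, SE 0.26). Cldn4 and Cldn23 were called higher in forestomach, with 0.86 and 1.07. Cldn18, whose gastric form seals glandular mucosa, read 0.00, 2.52, 1.62 and 1.56 in forestomach, with mouse 1 at the level of the livers (0.08, -0.21, -0.23 and 0.11).

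Transcription factors of the squamous and foregut lineage were higher in forestomach in 15 of 20 cases and higher in liver in 1, against 22.2% and 15.7% of all genes. Klf4, which drives terminal differentiation of squamous cells, read 3.22, 3.16, 3.19 and 3.2 in forestomach and -2.65, -2.79, -2.69 and -2.47 in liver, a 57.4-fold difference. The 4 forestomach values of Klf4 lay within 0.1 of each other. Grhl3 and Grhl1 (grainyhead factors of epidermal barrier genes), Pitx1 and Sox2 (a foregut factor) were well above background on 0 of 4 liver arrays, with bounds of at least 36.2-fold, 23.7-fold, 213-fold and 3.31-fold. Barx1, a factor of stomach mesenchyme, had a bound of at least 4.15-fold. For Trp63, the p63 factor of squamous stem cells, probes disagreed: the brightest probe gave -0.61 (SE 0.13), called higher in liver, and another gave 6.50, well above background on 4 of 4 forestomach and 0 of 4 liver arrays. No direction is given for Trp63, whose brightest probe also lost its call without the forestomach array of mouse 1.

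Factors of the hepatocyte programme were higher in liver in 17 of 19 cases. Nr1i3 (CAR, a sensor of drugs) read 0.04, -0.12, -0.26 and 0.01 in forestomach and 6.26, 6.56, 5.88 and 6.19 in liver, at least 36.1-fold, and Nr1h4 (FXR, the bile acid receptor) differed by -5.96 (SE 0.25). Hnf4a, which acts in liver and also in gut epithelium, read 0.08, 4.18, 4.31 and 4.12 in forestomach and 6.29, 6.12, 5.76 and 6.51 in liver. In mouse 1 it was at 0.1 or below in forestomach, and in the other 3 mice it was well above that. Foxa1 read 1.34, 4.17, 3.85 and 3.78 in forestomach and 2.39, 4.26, 2.49 and 2.62 in liver and was not called (0.34, SE 0.60). Without the array of mouse 1 the list's median difference moved from -3.00 to -2.27, and 17 genes were still called higher in liver. Cebpb, which is also induced in inflamed and regenerating tissue, was called higher in forestomach over the 8 arrays (0.88, SE 0.28), but 6 of the 8 fits that each left out 1 array did not call it.

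Most genes of the wall beneath the epithelium were also higher in forestomach. Medians were 5.62 for smooth muscle, 2.27 for matrix and 1.685 for enteric nerve and glia. All 17 smooth muscle genes were called higher in forestomach, with a median of 5.62, and 16 or 17 in each of the 8 fits that left out 1 array. Myh11 (smooth muscle myosin heavy chain) read 5.38, 5.49, 5.76 and 5.83 in forestomach and 0.18, 0.05, 0.19 and 0.36 in liver, at least 141-fold, and Cnn1 (calponin 1) 6.44, 6.73, 7.13 and 7.15 in forestomach and -1.63, -2.08, -1.83 and -2.0 in liver, at least 1630-fold. Myocd (myocardin, the coactivator of smooth muscle genes) had a bound of at least 3.26-fold. Acta2 (smooth muscle alpha-actin) differed by 5.62 (SE 0.22), and the values of mice 3 and 5 were again above those of mice 1 and 2 (2.74, 2.91, 3.63 and 3.71). For Tpm1, shared by muscle and other cells, the brightest probe gave 4.95 and another of its probes -1.5, also called, so isoforms or probes disagree. Of 19 fibroblast and matrix genes, 16 were called higher in forestomach, among them Col3a1 (type III collagen, 5.00, SE 0.19) and Mgp (matrix Gla protein, 6.92, SE 0.13). Relative to the reference pool, collagen was low in both tissues: Col1a1 read -2.05, -1.92, -1.63 and -1.37 in forestomach and -5.54, -6.37, -5.49 and -5.21 in liver. Fn1 (fibronectin, which hepatocytes secrete into plasma) was the member called higher in liver (-1.80, SE 0.27).

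Of 12 genes of enteric nerve and glia, 9 were called higher in forestomach and 0 higher in liver, against 22.2% and 15.7% of all genes. Vip (the relaxing neuropeptide of enteric neurons) read 3.73, 4.34, 2.99 and 3.86 in forestomach and 0.01, 0.06, -0.28 and -0.12 in liver, at least 5.38-fold, and S100b (of glia) had a bound of at least 3.87-fold. Ret, needed for the enteric nervous system to form, had a bound of at least 1.58-fold. Nos1 (neuronal nitric oxide synthase) was well above background on none of the 8 arrays. Of 10 mast cell and Langerhans cell genes, 7 were called higher in forestomach (22.2% of all genes were), and 8 without the forestomach array of mouse 1. Mcpt4 and Cpa3, proteases of connective tissue mast cells, were at similar levels in all 4 forestomachs (3.26, 3.30, 2.69 and 2.83 and 3.25, 3.72, 2.89 and 2.95). Mcpt2, a protease of mucosal mast cells, read 0.03, 3.62, 3.65 and 3.46, with mouse 1 at the liver's level. Cd207 (langerin), the marker of epidermal Langerhans cells, went the other way (0.40, 0.32, 0.05 and 0.46 in forestomach and 2.93, 3.98, 3.55 and 2.91 in liver), called higher in liver with -3.04 (SE 0.22).

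Epithelial defence genes were higher in forestomach in 11 of 16 cases and higher in liver in 2, against 22.2% and 15.7% of all genes. Il1f6 (interleukin 36 alpha) read 6.97, 7.27, 7.38 and 7.35 in forestomach and -0.08, 0.02, -0.08 and 0.09 in liver, at least 184-fold, and Defb14 and Defb1 (beta-defensins) had bounds of at least 9.74-fold and 7.29-fold. Slpi, a secreted protease inhibitor, read 0.53, 0.63, 1.31 and 1.46 in forestomach and -3.82, -3.82, -3.70 and -4.02 in liver, a 28.3-fold difference. S100a9, a subunit of calprotectin, was called higher in forestomach (3.41, SE 0.30). S100a8, of the same complex, lay the other way (-0.59, and -0.03 on Cy5 alone), and so did Lcn2 (-0.95). Cxcl1, a neutrophil chemokine, was well above background on 4 of 4 liver and 0 of 4 forestomach arrays, at least 3.56-fold higher in liver, with liver values of -1.94, -0.58, -1.0 and -2.06.

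Cell cycle genes were higher in forestomach in 24 of 31 cases and higher in liver in 0, with a median of 1.37 (1.73 with median-centred arrays). Mki67 (Ki-67, a marker of cycling cells) read -1.91, -2.41, -1.55 and -1.58 in forestomach and -5.08, -5.88, -5.21 and -5.16 in liver, a 11.1-fold difference. Ccna2 (cyclin A2) and Mcm6 (of the replicative helicase) differed by 2.83 (SE 0.20) and 3.12 (SE 0.21). Both tissues lay below the reference pool of cell lines for Mki67, Ccna2 and Mcm6. These genes lay well above the list's median, and 7 genes were not called. Among those were E2f1 (-0.005) and Cdk1 (-0.90, and 0.51 on Cy5 alone). Cy5 alone and a fit that pairs the tissues of each mouse each called 1 gene of the list higher in liver.

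Plasma transport proteins and apolipoproteins were higher in liver in 29 of 29 cases, with a median difference of -6.60. Alb (albumin) read 0.80, 2.11, 0.70 and 2.64 in forestomach and 8.02, 7.95, 6.62 and 7.70 in liver, a ratio difference of -6.01 (SE 0.44, adjusted p = 1.1e-06). The Cy3 signal of Alb was itself lower on forestomach arrays (-5.98 on the log2 scale), and Cy5 alone differed by -10.49, so the ratio understates the Cy5 difference. Apoh (beta-2-glycoprotein I) read -0.04, 0.73, 0.20 and 0.56 in forestomach and 11.00, 11.08, 10.02 and 10.81 in liver. Apob, the protein of VLDL and LDL, read 0.13, 1.92, 2.27 and 2.13 in forestomach and 10.89, 10.51, 9.49 and 10.74 in liver. Serpina3k, a secreted serpin, read 0.28, 1.67, 0.36 and 2.58 in forestomach and 12.13, 11.97, 10.72 and 11.78 in liver. All 3 were far above the reference pool in every liver and below 3 in every forestomach. Apoa1 (of HDL) and Ttr (transthyretin), which gut epithelium also makes, read 0.21, 4.96, 5.17 and 5.15 and 0.51, 5.57, 4.79 and 5.13 in forestomach, near 0 in mouse 1 and near 5 in the others. Fetub was least separated, at -0.83 (SE 0.15), with 6.16, 6.16, 6.19 and 5.87 in forestomach. Apoc1 and Trf (transferrin) were also well above the reference pool in every forestomach, with 3.98, 4.39, 4.23 and 4.41 and 3.16, 4.14, 3.91 and 4.11.

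Coagulation and complement genes were higher in liver in 29 of 30 cases, with a median of -7.06. The fibrinogen chains Fga, Fgb and Fgg differed by -8.85, -8.18 and -9.59. F12 and F11, of the contact pathway, and C8b, of the membrane attack complex, were well above background on 0 of 4 forestomach arrays, with bounds of at least 254-fold, 54.2-fold and 318-fold. F10 (coagulation factor X) was the member not called: it read -0.31, 0.90, 1.15 and 1.04 in forestomach and 1.45, 1.21, 0.74 and 0.86 in liver, and only mouse 1 stood below the livers. C3, the central complement component, differed by -5.12 (SE 0.27). Cfi (complement factor I) read 0.31, 5.85, 5.29 and 5.61 in forestomach, near 0 in mouse 1.

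Bile acid genes were higher in liver in 18 of 19 cases. Cyp7a1, the rate-limiting enzyme of bile acid synthesis, read -0.13, -0.06, -0.03 and -0.23 in forestomach and 5.15, 5.97, 3.60 and 4.92 in liver, at least 11.5-fold, and it varied most among the livers, with mouse 3 lowest. Cyp8b1, which makes cholic acid, had a bound of at least 38.7-fold. The uptake carrier Slco1b2 differed by -10.17 (SE 0.21) and the canalicular pump Abcb11 by -4.96 (SE 0.23). Slc10a1 (NTCP, the main hepatic bile salt uptake carrier) was not called by its brightest probe (0.05, SE 0.31), which read -0.05, 1.34, 1.41 and 1.42 in forestomach and 1.32, 1.2, 0.66 and 0.76 in liver. The mean over all its probes was -3.31, so no direction is given for it.

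The urea cycle and amino acid breakdown were higher in liver in 23 of 23 cases, with a median of -6.65. Cps1, which fixes ammonia, read 0.31, 0.03, 0.37 and 0.12 in forestomach and 8.30, 8.41, 7.60 and 7.77 in liver, and Otc, the next step of the cycle, had a bound of at least 81-fold. Hpd and Hgd, of tyrosine breakdown, had bounds of at least 428-fold and 110-fold. Arg1 (arginase), also known in keratinocytes and macrophages, was above the reference pool in forestomach (2.99, 4.02, 2.91 and 3.47) and still lower than in liver (8.48, 8.51, 8.06 and 8.34). Glul (glutamine synthetase) was the least separated (-2.16, SE 0.35).

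Glucose handling showed pairs of isozymes called in opposite directions. All 13 genes of hepatic glucose handling were higher in liver (median -7.19), whereas of 15 non-hepatic isozymes 10 were higher in forestomach and 1 higher in liver (median 1.72). Among 7 pairs of a liver form and a widespread form of the same activity, 5 were called in opposite directions. Slc2a2 (the glucose transporter GLUT2) read 0.10, -0.13, -0.06 and -0.12 in forestomach and 7.56, 7.58, 7.94 and 7.25 in liver. Slc2a1 (GLUT1) read -1.33, -1.28, -1.18 and -1.08 in forestomach and -4.13, -4.07, -4.03 and -3.69 in liver. Their differences were -7.64 and 2.76. Hk1 (hexokinase 1, a widespread enzyme of glucose phosphorylation) was called higher in forestomach (5.09, SE 0.22). The pyruvate kinases Pklr and Pkm differed by -3.29 and 2.48, and Fbp1 and Fbp2 (fructose bisphosphatases of liver and of muscle) by -8.61 and 3.54. In the remaining pairs the widespread form was not called: Gys1 (0.40, SE 0.15) beside Gys2, and Mat2a (0.52, SE 0.11) beside Mat1a. Without the forestomach array of mouse 2 Mat2a was called, at 0.59. Pck1, a rate-limiting enzyme of gluconeogenesis, differed by -9.07 (SE 0.24).

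**Figure D4:**
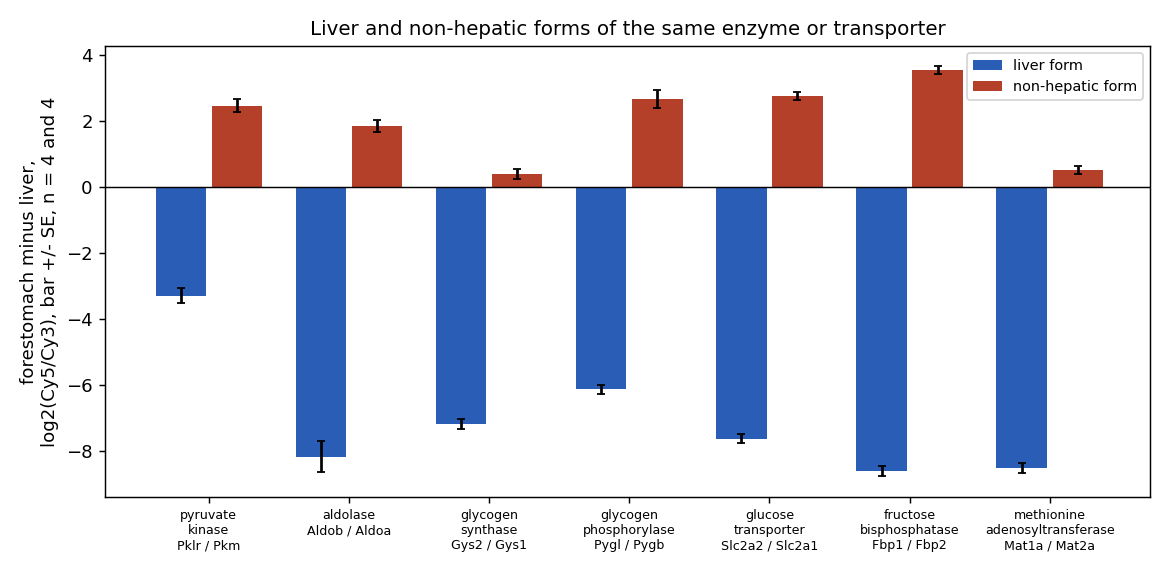
Tissue difference, forestomach minus liver in log2(Cy5/Cy3), of 7 pairs made of a liver form (blue) and a non-hepatic form (red) of the same enzyme or transporter, with bars for the difference and whiskers for the SE from limma (4 and 4 arrays). Every liver form lay below 0, and the non-hepatic form was called above 0 in 5 of 7 pairs.

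Fatty acid oxidation and ketone synthesis were higher in liver in 17 of 19 cases, with a smaller median of -2.12. Slc27a2 and Fabp1, which take up and carry fatty acids in liver, differed by -9.84 and -9.21, whereas enzymes of the mitochondrial pathway that most cells use differed less, such as Acadl (-0.78) and Cpt2 (-0.96).

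CYP2, CYP3 and CYP4 enzymes, most of which oxidise drugs, steroids and fatty acids, were higher in liver in 36 of 48 cases and higher in forestomach in 5. These shares were 75% and 10.4%, against 15.7% and 22.2% of all genes. Those higher in forestomach included Cyp2s1, known in epithelia exposed to the outside, which read 4.55, 5.12, 5.19 and 4.93 in forestomach and -2.47, -2.84, -2.04 and -2.63 in liver (174-fold, adjusted p = 1.44e-10). Cyp4f39, which makes the ultra-long hydroxy fatty acids of the epidermal barrier, had a bound of at least 5.56-fold. Cyp2c65 and Cyp2c66 read 0.61, 5.64, 5.50 and 5.47 and 0.78, 6.08, 4.81 and 5.98 in forestomach, below 1 in mouse 1 and near 5 or above in the other 3, in step with the glandular genes. Cyp2e1, which oxidises ethanol, read 1.76, 1.87, -0.02 and 1.40 in forestomach and 7.40, 8.15, 6.83 and 7.61 in liver, with Cy3 lower on forestomach arrays (-5.40). Cyp3a25 had a bound of at least 189-fold toward liver, and Cyp2f2, better known in lung, was above the reference pool in both tissues (5.27, 5.59, 5.58 and 5.58 in forestomach and 7.39, 7.29, 6.63 and 7.40 in liver). Cyp2b10, which CAR induces, spread widely within both tissues (1.17, 3.16, 2.45 and 3.43 in forestomach and 3.06, 5.40, 4.41 and 3.12 in liver) and was not called (-1.45, SE 0.58, limma adjusted p = 0.0847). With mice as blocks, which pairs the tissues of each animal, it was called higher in liver (adjusted p = 0.021). Many Cyp2 and Cyp3 genes are close paralogs, so single names carry that uncertainty.

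Conjugating enzymes differed in both directions: of 46 UGT, SULT and GST genes, 29 were called higher in liver and 9 higher in forestomach. The shares over all genes were 15.7% and 22.2%. Ugt2b5 and Ugt2b1 had bounds of at least 207-fold and 79.1-fold toward liver. Within the alpha class of glutathione transferases, Gsta3 was higher in liver (-6.28, SE 0.16) and Gsta1 higher in forestomach (5.04, SE 0.53). Gsta2 read 5.30, 6.76, 6.27 and 5.46 in forestomach and 1.5, 2.74, 5.00 and 1.56 in liver, so the liver of mouse 3 lay just below the lowest forestomach, far from the other livers. Mgst1 and Mgst2 were likewise opposed (-4.04 and 5.26). Gstp1, of the pi class, was higher in liver in these males (1.02, 1.28, 1.62 and 1.40 in forestomach and 3.84, 4.55, 3.91 and 3.64 in liver). Sult2b1, the cholesterol sulfotransferase of cornifying epithelia, had a bound of at least 76.2-fold toward forestomach. Sult1c2 read -1.39, 6.03, 5.78 and 6.34 in forestomach, lowest in mouse 1, and was not called over the 8 arrays, but was without that array (4.38).

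Genes of the aryl hydrocarbon receptor and of the activation of aromatic hydrocarbons were divided, with 8 of 20 called higher in forestomach and 6 higher in liver. The shares over all genes were 22.2% and 15.7%. Ahr, the receptor itself, read -0.42, -0.26, -0.39 and -0.17 in forestomach and 0.68, 0.73, 0.91 and 1.01 in liver, higher in liver by 2.21-fold (adjusted p = 6.45e-06), and its partner Arnt was not called (-0.35, SE 0.09). With median-centred arrays Ahr differed by -0.71 and was not called. Tiparp, a target of the receptor, was called higher in forestomach (1.1). Cyp1a1, the inducible oxidase of these compounds, was well above background on none of the 8 vehicle arrays. Cyp1a2, its constitutive hepatic relative, read 0.10, 0.34, 0.10 and 0.01 in forestomach and 6.78, 6.57, 5.72 and 6.46 in liver, at least 182-fold higher in liver, while Cyp1b1, their extrahepatic oxidase, read -0.79, -0.87, -0.12 and -0.43 in forestomach and -2.63, -2.96, -2.34 and -2.45 in liver, at least 3.83-fold higher in forestomach. In mice given oil alone Cyp1a2 and Cyp1b1 thus differed in opposite directions, and Cyp1a1 was too dim to show a tissue pattern. Ephx1 (microsomal epoxide hydrolase, which opens hydrocarbon epoxides to diols) was higher in liver (-1.58, SE 0.11), and Por, the electron donor of P450 enzymes, higher in forestomach, with the liver of mouse 2 within the forestomach range (0.78, 0.92, 0.79 and 0.88 in forestomach and -0.86, 0.81, -0.31 and -0.83 in liver).

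Antioxidant and quinone-handling genes in the same list also went both ways. Nqo1 (quinone reductase) read 2.42, 3.06, 2.99 and 1.96 in forestomach and -1.82, -1.98, -1.57 and -1.62 in liver, a 20.5-fold difference toward forestomach, and Nfe2l2 (the factor NRF2), Aldh3a1 and Hmox1 were called in the same direction (2.46, 3.24 and 2.64). Gclc and Gclm, the subunits that limit glutathione synthesis, were higher in liver (-2.33 and -2.19). Retinoid and alcohol genes were higher in liver in 15 of 26 cases and higher in forestomach in 8, against 15.7% and 22.2% of all genes. Adh4 had a bound of at least 159-fold toward liver and Adh7, the stomach form of alcohol dehydrogenase, of at least 3.65-fold toward forestomach. Crabp2, which carries retinoic acid to its receptor, and Rbp2 were higher in forestomach (4.86 and 3.94).

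Among the lists with at least 20 measured genes, DNA damage and excision repair had the smallest share of called genes. Of 22 genes, 3 were called higher in forestomach and 2 higher in liver, against 22.2% and 15.7% of all genes, and the median was 0.17. With median-centred arrays 10 and 1 were called, so counts of such small differences depend on the scaling. Cdkn1a (p21, which halts the cell cycle) stood out, with 0.91, 0.82, 0.77 and 0.79 in forestomach and -2.85, -1.34, -2.43 and -2.93 in liver, a 9.24-fold difference toward forestomach. Ercc1 was also higher in forestomach (1.80, SE 0.13), and Mgmt and Xpc were higher in liver (-1.42, SE 0.17, and -0.69, SE 0.12). Trp53 read -1.13, -1.29, -1.33 and -1.21 in forestomach and -1.41, -1.60, -1.22 and -1.30 in liver and was not called.

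Most markers of resident cells of the liver were higher in liver. Of 13 Kupffer cell and sinusoidal endothelium genes, 11 were called higher in liver and 1 higher in forestomach, with a median of -2.20. Over all genes 15.7% and 22.2% were. Differences ran from 1.72 to -7.05, the latter for Clec4g. Clec4f, found in Kupffer cells, read 0.08, 0.05, -0.29 and 0.05 in forestomach and 6.42, 7.01, 6.16 and 6.20 in liver, at least 34.4-fold, and Clec4g, of sinusoidal endothelium, had a bound of at least 57.2-fold. Lyve1, which marks sinusoids and also lymphatic vessels, was higher in forestomach (1.72, SE 0.37). Vsig4 and Marco, of macrophages, were highest in mouse 1 among the forestomachs (2.81, 0.90, 1.53 and 0.78 and 3.01, 0.77, 0.80 and -0.07). Marco was not called over the 8 arrays (-0.83) and was called higher in liver without that array (-1.46). Of 8 B cell genes 1 was called higher in liver and 0 higher in forestomach (median -0.13), and on Cy5 alone 0 and 1. Of 10 T cell genes 3 were called higher in liver and 1 higher in forestomach (median -0.03), against 15.7% and 22.2% of all genes, and with median-centred arrays 1 and 3.

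Further lists checked for neighbouring tissue in the sections. Of 14 exocrine pancreas genes, 5 were called higher in forestomach (22.2% of all genes were) and 1 higher in liver, and 7 and 1 without the forestomach array of mouse 1. Clps (colipase) read 2.14, 7.85, 8.02 and 7.85 in forestomach, low in mouse 1 as the glandular genes were. Of 12 skeletal muscle genes, 6 were not called and 1 was called higher in liver. The remaining 5 were called higher in forestomach (22.2% of all genes were), with Ckm at 2.53, 2.13, 1.88 and 2.63. Of 10 fat cell genes, 2 were called in that direction, Fabp4 and Cidec, against 22.2% of all genes (1 in the joint fit of 58 arrays and 4 with the scanner's ratio), while Adipoq (adiponectin) and Cfd (adipsin) were not called and were highest in the forestomach of mouse 1 (1.96, 0.19, 0.07 and 0.12 and 5.22, 1.23, 0.21 and 1.91). Without the array of mouse 1 Cfd was called at 1.0, and without that of mouse 3 at 2.67. Haemoglobin (Hba-a1) was higher in liver by 4.58-fold. Of 15 genes often used as references, 5 were called in each direction, against 22.2% (forestomach) and 15.7% (liver) of all genes. Actb differed by 1.17 (SE 0.24) and B2m by -3.30 (SE 0.23), whereas Gapdh (-0.20, SE 0.19) was not called.

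The reference channel was examined gene by gene, since each ratio rests on it. Of the 524 called genes of the lists, 146 had a Cy3 difference of at least 1 on the log2 scale between forestomach and liver arrays, and in 140 of these Cy3 moved in the same direction as the ratio. Krt5 (7.37), Lor (6.08) and Krtdap (5.95) had higher Cy3 on forestomach arrays, and Alb (-5.98), Ahsg (-5.58) and Cyp2e1 (-5.40) lower. In 126 of the 140 the ratio gave a smaller difference than Cy5 alone. On Cy5 alone 523 of the 524 genes kept their direction. The cause of the Cy3 differences was not tested.

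**Figure D5:**
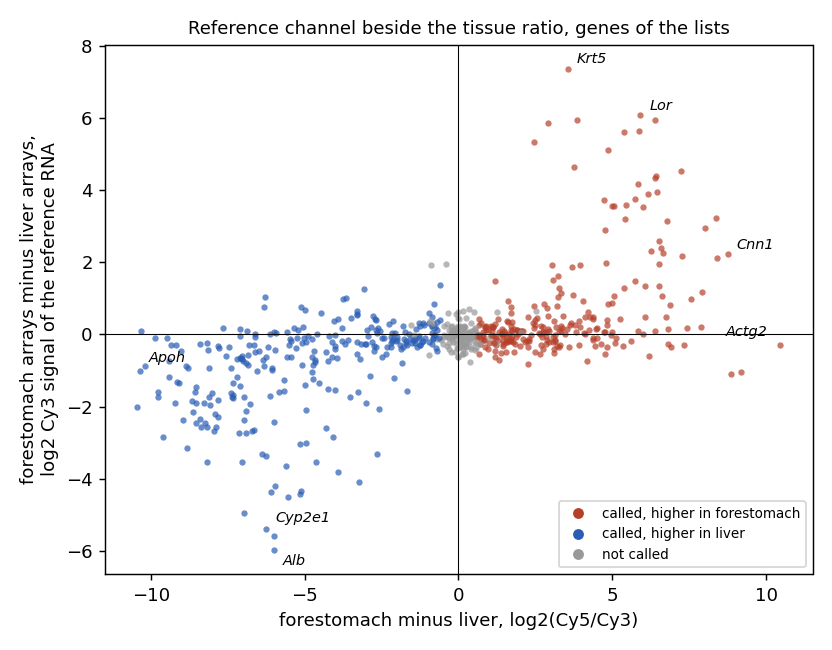
Difference in the Cy3 signal of the reference RNA between forestomach and liver arrays (log2, vertical axis) against the tissue difference in log2(Cy5/Cy3) (horizontal axis) for the measured genes of the lists, 1 point per gene coloured by call, means of 4 arrays each. Most genes lay near 0 on the vertical axis, but 146 of 524 called genes were at least 1 away from it and 140 of those lay on the side of their ratio, with Krt5 at 7.37 and Alb at -5.98.

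The comparison was repeated in mice that it had not used, within each IP dose, whose animals also carried the exposure. Tissue and slide were arranged the same way in them, so slide and scan again cannot be told apart from tissue. Of probes, 21.2, 23.1 and 22.1% were called between forestomach and liver at the low, middle and high dose. Of the 7186 probes higher in vehicle forestomach, 82.4, 89.2 and 87.5% were called again in the same direction, and of the 5533 higher in vehicle liver 82.2, 81.8 and 77.4%. No probe was called in the opposite direction at any dose. Among the 524 called genes of the lists, 469, 485 and 494 were called again and 0 the other way. Recurrence was uneven between lists. Of the 15 called glandular stomach genes 3, 3 and 12 were called again, and of the 29 plasma transport genes all 29 at each dose. The Krt1 difference was 8.30, 8.55 and 8.37 at the 3 doses (vehicle 8.35), that of Actg2 9.86, 10.41 and 10.23 (vehicle 10.46) and that of Cps1 -7.66, -7.63 and -7.32 (vehicle -7.82). Among the CYP1 genes, Cyp1a2 gave -6.13, -6.11 and -5.87, Cyp1b1 2.44, 1.98 and 2.20, and Cyp1a1 0.28, 0.30 and 0.64 against 0.04 in vehicle mice. These dosed values are side by side with the vehicle ones and were not tested against them.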

How the data were processed

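Tissue RNA (Cy5) and universal mouse reference RNA (Cy3) were hybridised to dual-colour Agilent mouse arrays, and the deposited scanner files gave median spot intensity for each channel, as made by the authors with Feature Extraction. The deposited files also held the scanner's log10 ratio of red over green, used as an alternative. The series matrix, deposited by the authors as log2 values, was not used, and the deposited tables held 0 columns of other series. Arrays were grouped by GEO's labels. Control spots were left out (59305 spots remained), spots of a probe were averaged to 55681 probes, and log2(Cy5/Cy3) was normalised by loess within each array without background subtraction, as in the study's methods.

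Forestomach was compared with liver by limma 3.58.1 in R 4.3.3 (4 and 4 arrays, two-sided, Benjamini-Hochberg over all probes, adjusted p at most 0.05 and fold change at least 1.5, thresholds the study used within tissues). The fit recovered changes put into simulated data. The same mice gave both tissues by the labels, and deviations from the tissue means correlated at 0.026, 0.099, 0.067 and 0.080 within mice 1, 2, 3 and 5 and at most at 0.008 between different mice. Replicates were separate mice, and the number of arrays limits the precision.

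Gene names came from the files, with RefSeq accessions updated (26413 probes named). The comparison, the gene lists (665 genes, 650 measured) and the genes described were chosen with earlier results of these data known. Genes were named by the size of their difference among those measured on all 8 arrays, and otherwise from the lists to show each list's typical, least separated and exceptional members, the latter chosen after their values were seen. Some members of the lists are not reported here by name. Lower bounds were the lower of those after loess and Aquantile and on quantile-normalised Cy5, the latter added after seeing the data. Alternatives were normexp background correction (on median signals, since the files held no mean signal used here), median-centring, Cy5 alone, the scanner's ratio, kept outlier spots, a filter on dim probes, mice as blocks, joint fits, other thresholds and leaving out each array.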

Additional observations from a re-analysis of the deposited data

Results flagged for a closer look

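The values below lay far from the other 3 of their tissue by Dixon's ratio (the gap to the nearest value over the range of the 4). 480 groups of 4 were tested and 59 were marked, of which 37 concerned the forestomach array of mouse 1, and chance marks about 1 in 20. The causes were not tested.

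That array had the mean correlation with its own tissue of 0.851, against 0.918 to 0.929 for the other 3. Its list means of log2(Cy5/Cy3) were 0.36 for the glandular stomach, -0.88 for simple keratins and 1.35 for conjugating enzymes, each below the others, 1.15 for Kupffer cell and sinusoid genes, above them, and -0.53 for reference genes, below them. Single genes of the gastric and simple epithelium that were lower there included Atp4b (0.17), Cblif (0.24), Muc5ac (1.28), Tff1 (2.19), Clps (2.14), Krt8 (-3.43), Krt18 (-3.89), Krt19 (-1.90), Sult1c2 (-1.39), Mcpt2 (0.030), Cyp2c65 (0.61) and Gsta1 (4.10). Genes shared with liver were also lower there, with Apoa1 at 0.21, Apob at 0.13, Ttr at 0.51, Cfi at 0.31, F10 at -0.31, Foxa1 at 1.34, Hnf4a at 0.077, Pkp2 at -1.97 and Slc10a1 at -0.054. Some genes of squamous differentiation were lower by about 1 or less, with Asprv1 at 6.13, Cnfn at 5.19, Krt10 at 6.33, Krtdap at 5.75, Lor at 6.30 and Pitx1 at 4.62, and so was Cyp2f2 (5.27). Adipoq (1.96), Grhl3 (6.68) and Mgst1 (3.31) were higher there than on the other 3 arrays.

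In the other forestomachs, Ccna2 was low in mouse 2 (-2.43), Clec4f (-0.29) and Rptn (6.13) were low in mouse 3, Fetub was low in mouse 5 (5.88) and Cyp4f39 was high in mouse 5 (3.42).

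Among the livers, mouse 3 was lowest for Mup20 (9.51), Cyp2c70 (8.11), Cyp2f2 (6.63), F12 (7.47), Fabp1 (10.43), Hpd (7.93), Ttr (7.22), Cldn3 (5.98) and Krt16 (0.095). The liver of mouse 2 was highest for the hepatocyte transcription factor list (mean 4.51, others 3.97 to 3.98), Foxa1 (4.26) and Lyve1 (2.24), and lowest for the B cell list (-0.82), Mki67 (-5.88) and Pitx1 (-1.26). Adh7 was highest in the liver of mouse 1 (-0.087), and Adipoq was lowest in that of mouse 5 (-0.33).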

How the results depend on the processing

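Probe counts (7186 higher in forestomach and 5533 higher in liver) stayed within 1.5 times under every alternative except those named next. Median-centred arrays gave 2857 higher in liver, a fold change of at least 2 gave 4604 and 3366, and the laxer background flag gave 1260 and 235 probes detected in forestomach or liver alone in place of 2397 and 564. Leaving out each array gave 6979 to 7300 and 5473 to 5558. With the replicate block (mice as blocks) 7240 and 5559 were called. Among the genes described, the block added the call of Cyp2b10 and ended that of Cebpb. Genes called higher in liver numbered 1 in the cell cycle list (0 without the block) and 3 in epithelial defence (2 without). Slide as a random block could not be fitted over the 8 arrays, where slides with more than 1 array numbered 1, and in the joint fit of 58 arrays, chosen after seeing the data, it gave 7154 and 5451.

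Glandular stomach genes called fell from 15 to 5 and pancreas genes from 5 to 3 with a trended, robust variance, and DNA damage calls rose to 10 and 1 with median-centring and were 4 and 4 with the scanner's ratio. Directions that reversed were those of small or discordant values. On Cy5 alone Arnt was 0.082, F10 0.44, Gys1 -0.19, Krt8 -0.10, Trp53 -0.33 and Trp63 0.64. With median-centring Arnt was 0.094, Cyp1a1 -0.14 and Tgm3 0.20. Slc10a1 was -1.25 with the scanner's ratio. Means over all probes were -3.31 for Slc10a1, 1.49 for Tgm3 and 2.94 for Trp63. Leaving out arrays, Cyp1a1 ran from -0.052 to 0.13, Krt8 from -0.40 to 1.37, Krt18 from -1.15 to 0.41 and Slc10a1 from -0.085 to 0.41. The cause of these changes was not tested. With 4 arrays a tissue, dim probes give bounds and no levels.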
